A study of Mus musculus with 2 samples.

Results

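The genes examined here act in the cell division cycle, and they were measured in single cells of the mouse colon. They were chosen by symbol, and all 42 symbols were found among the 31053 features of the 2 libraries. Of these genes, 16 are named here for S phase, in which DNA is copied, 24 for G2 and mitosis (G2/M), and Stmn1 and Hmgb2 were kept outside both phase groups because resting cells also carry them. The libraries came from the gut lamina propria of C57BL/6J mice, 1 library labelled WT and 1 labelled LncRNA17Rik knockout (KO), a line in which the long noncoding RNA that the study calls lncLy6c was removed with CRISPR-Cas9 by cuts on both sides of its first 2 exons. The mice of both groups were 8-week-old males and were pooled. The labels of both libraries read cd11b+, and cells were taken from a Percoll gradient and stained for sorting. The label's name for the lncRNA matched no feature symbol, so the deletion was not checked in these counts. With 1 library per genotype, genotype, animal pool and library cannot be told apart, and no test between genotypes was possible. All intervals below are 95% intervals, which cover counting error only, and the UMIs of 1 cell are not independent of each other.

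A dividing cell first licenses its replication origins with Cdc6, Cdt1 and the Mcm2 to Mcm7 helicase, while geminin (Gmnn) blocks a renewed licensing. It then makes nucleotides with ribonucleotide reductase (Rrm1, Rrm2), thymidylate synthase (Tyms) and thymidine kinase (Tk1), and copies DNA with the sliding clamp Pcna and its partner Pclaf, followed by Uhrf1, which helps to restore DNA methylation. In G2 and mitosis, Cdk1 with cyclins A2, B1 and B2 drives entry, the kinases Plk1, Aurka and Aurkb and the motors and spindle proteins build the spindle, Bub1 and Bub1b hold the checkpoint, and Cdc20 and Ube2c start the destruction of the cyclins. In the colon lamina propria, plasma cells descend from dividing B cells, conventional dendritic cells (cDC) arise from progenitors that still divide in tissue, and neutrophils and eosinophils have left the cycle before they reach the tissue.

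The promoters were searched for letters known from cell cycle control. E2F factors act on S phase genes, and the MuvB complexes act on G2/M genes through the cell cycle genes homology region (CHR), often with CCAAT boxes nearby. In RefSeq promoters of GRCm38.p6, 250 bases before to 50 bases after the start site, 14 of 16 S genes and 20 of 24 G2/M genes were matched, and Aurkb, Ccna2, Gmnn, Kif20a, Mcm4, Stmn1 and Tpx2 were not. Both strands were searched, and the E2F letters could overlap each other. E2F letters (TTTCCCGC, TTTGGCGC, TTTCGCGC or TTTGCCGC) stood in 8 of 14 S promoters (57.1%), in 1 of 20 G2/M promoters (Cdk1) and in 2.60% of 27025 genes. The CHR letters TTTGAA stood in 15 of 20 G2/M promoters (75%), in 1 S promoter (Mcm2) and in 20.2% of all genes. CCAAT stood in 18 G2/M and 10 S promoters, beside 41.1% of all genes, and all 15 G2/M promoters with CHR letters also held CCAAT, beside 8.97% of all genes with both. A match describes letters, not a bound site. The windows of 30 bases below carry the letters of 4 S genes and 4 G2/M genes whose levels are described later, written 5′ to 3′ on the gene's strand, with the E2F letters or their complement in capitals in the first 4 (in Mcm5 a pair of overlapping matches) and the CHR letters or their complement in capitals in the last 4.
Mcm5, chr8:75109349-75109378, plus strand: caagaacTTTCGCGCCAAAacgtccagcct
Mcm6, chr1:128359734-128359763, minus strand: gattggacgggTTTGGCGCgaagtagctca
Mcm7, chr5:138172030-138172059, minus strand: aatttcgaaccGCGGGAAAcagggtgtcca
Uhrf1, chr17:56304117-56304146, plus strand: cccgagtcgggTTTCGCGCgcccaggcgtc
Mki67, chr7:135716460-135716489, minus strand: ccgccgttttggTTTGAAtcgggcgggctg
Top2a, chr11:99024195-99024224, minus strand: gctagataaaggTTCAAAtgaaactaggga
Ube2c, chr2:164769888-164769917, plus strand: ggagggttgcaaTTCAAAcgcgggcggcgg
Kif11, chr19:37376351-37376380, plus strand: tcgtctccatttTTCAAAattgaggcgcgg

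After the study's filter of 200 to 6000 genes and at most 15% mitochondrial UMIs, 2597 WT cells (median 5073 UMIs) and 2514 KO cells (median 6564.5 UMIs) remained, and the libraries shared 1 barcode. Cells were clustered without the cell cycle genes summed or listed here and without histone genes. Other cell cycle genes were not left out. Clusters were named from marker genes, and 1 of 23 clusters (405 cells) stayed unnamed. Against the label cd11b+, Itgam, which encodes CD11b, stood at 274 and 232 counts per 1000000 UMIs (CPM) in WT and KO resident macrophage-like cells, but at 38.3 and 28.2 CPM in T cell-like, 25.04 and 2.54 CPM in B cell-like and 10.8 and 23.4 CPM in cDC1-like cells. cDC2-like cells, at 177 and 175 CPM, and NK cell-like cells, at 132 and 256 CPM, held more of it. The T cell-like, B cell-like and cDC1-like cycling described below thus lay in types with little Itgam. Itgam was read over each whole type, not in its cycling cells. The mix of cells also differed: plasma cell-like cells numbered 232 in the WT and 5 in the KO library, T cell-like cells 220 and 82, and cDC2-like cells 304 and 638. The doublet caller Scrublet marked 0 WT and 4 KO cells and is taken not to have worked, so doublets remain possible.

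Summed over the 42 genes, the level was highest in T cell-like cells of the WT library, followed by cDC1-like cells, and highest in cDC1-like cells of the KO library. T cell-like cells stood at 4231 CPM (4119.7 to 4344) in the WT library and 1458 CPM (1354 to 1568) in the KO library. B cell-like cells gave 2947 and 1350.4 CPM, and NK cell-like cells, with 27 and 41 cells, 3005 and 1392 CPM. Plasma cell-like cells of the WT library stood at 2522 CPM (2474 to 2571). In T, B and NK cell-like cells the WT library held the higher value, while innate lymphoid cell-like cells, with 21 and 22 cells, gave 878 and 1181 CPM and epithelial cell-like cells, with 123 and 16 cells, 757 and 1488 CPM. The KO library held the higher value in the cDC types. cDC1-like cells gave 3786 CPM (3655 to 3920.2) and 4169 CPM (4094 to 4244). cDC2-like cells gave 1557 CPM (1514 to 1601) and 1969.9 CPM (1942 to 1998). The small WT to KO gap in cDC2-like cells turned, however, when the left-out cell cycle genes were allowed to shape the clusters. Resident macrophage-like cells gave 1228 and 1275 CPM and inflammatory monocyte-like cells 979 and 795 CPM. Over all cells the libraries were close, at 1850.1 and 1868 CPM.

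A summed level does not by itself mark division, because neutrophil-like cells stood at 1180.2 CPM in the WT and 1186 CPM in the KO library and eosinophil-like cells at 1659.7 and 1333 CPM. Of the 1166 UMIs of these genes in 338 neutrophil-like cells, 96.6% came from 7 genes: Pcna, Cdt1, Cenpa, Kif23, Mki67, Stmn1 and Hmgb2. Hmgb2 gave 724 of these UMIs, Pcna 211, Kif23 90 and Mki67 68, but Cenpa and Cdt1 gave only 12 each and Stmn1 9. Of the other 35 genes, 15 were at 0 UMIs and 20 at 1 to 5. These 7 were picked after their values were seen. Without them, neutrophil-like cells summed to 74.7 and 31.9 CPM, and the types spread further apart. T cell-like cells then stood at 1662 and 278 CPM and B cell-like cells at 1136 and 211 CPM. cDC1-like cells stood at 1707 and 1835 CPM and cDC2-like cells at 523 and 724 CPM. Resident macrophage-like cells stood at 307 and 317 CPM and inflammatory monocyte-like cells at 142 and 75.5 CPM.

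**Figure D1:**
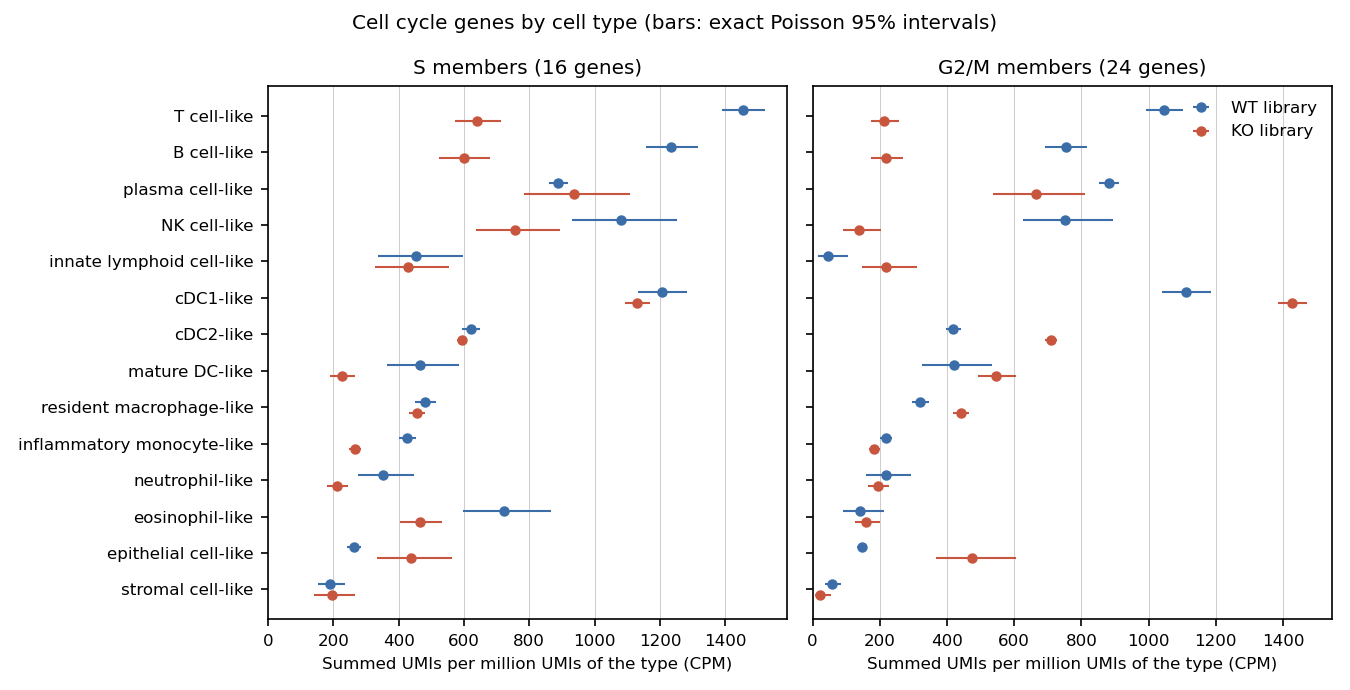
Summed UMIs of the 16 S genes (left) and the 24 G2/M genes (right) per 1000000 UMIs (CPM) by cell type, WT and KO library, with exact Poisson 95% intervals. T, B and NK cell-like cells are higher in the WT library in both panels. In T cell-like cells the sums are 1454 against 640 CPM for S and 1046 against 211 CPM for G2/M genes. Epithelial cell-like cells are higher in the KO library in both. The G2/M sum alone is higher in the KO library in cDC1-like, cDC2-like, innate lymphoid cell-like and resident macrophage-like cells, among others. In resident macrophage-like cells the G2/M sums are 320 against 442 CPM, a log2 ratio, KO over WT, of 0.47 (0.33 to 0.61). Mki67 alone makes up 185 of the 625 WT and 738 of the 1302 KO UMIs in those sums, at 94.6 and 250 CPM.

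Which types cycle was read per cell. Each cell was thinned to 2000 UMIs, which left 1966 WT and 1947 KO cells and set aside 631 and 567 shallower ones, and a cell was called cycling with at least 4 UMIs from at least 3 of the 40 phased genes. In the WT library, 46 of 216 T cell-like cells were called cycling, 21.3% (16.03 to 27.4). Called there were also 33 of 163 B cell-like cells, 20.2% (14.4 to 27.2), and 46 of 220 plasma cell-like cells, 20.9% (15.7 to 26.9). In the KO library, 5 of 80 T cell-like cells, 6.25% (2.06 to 13.99), and 9 of 84 B cell-like cells, 10.7% (5.02 to 19.4), were called. NK cell-like cells gave 6 of 27 WT cells, 22.2% (8.62 to 42.3), and 1 of 41 KO cells, 2.44% (0.0617 to 12.9). cDC1-like cells gave 14 of 56 cells, 25% (14.4 to 38.4) in the WT and 48 of 140 cells, 34.3% (26.5 to 42.8) in the KO library, and cDC2-like cells 29 of 296 cells, 9.80% (6.66 to 13.8) and 90 of 631 cells, 14.3% (11.6 to 17.2). Resident macrophage-like cells gave 17 of 227 cells, 7.49% (4.42 to 11.7) and 14 of 263 cells, 5.32% (2.94 to 8.77). Monocyte-like cells were near the background, with 5 of 396 cells, 1.26% (0.411 to 2.92) and 5 of 343 cells, 1.46% (0.475 to 3.37). The background in neutrophil-like cells was 0 of 50 WT cells, which allows a share of up to 6% at 3 counts of the total (Clopper-Pearson upper limit 7.11%), and 1 of 232 cells, 0.431% (0.0109 to 2.38) in the KO library, at median depths of 2227 and 2998 UMIs before the shallow cells were set aside. Eosinophil-like cells, with median depths of 731 and 970 UMIs, kept only 3 and 24 cells after thinning, of which 0 and 1 were called. No stromal cell-like cell was called, 0 of 72 in the WT library (up to 4.17% at 3 counts, Clopper-Pearson upper limit 4.99%) and 0 of 19 in the KO library.

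A narrower call without Pcna, Cdt1, Cenpa, Kif23 and Mki67, added after seeing the data, left 31 T cell-like, 11 B cell-like and 36 plasma cell-like cells in the WT library. It left 11 WT and 39 KO cDC1-like cells, 16 and 55 cDC2-like cells, 3 and 5 resident macrophage-like cells, and no neutrophil-like or monocyte-like cell in either library. Of 5 KO T cell-like and 9 KO B cell-like cells it left 0 and 1. T, B and plasma cell-like cells of the WT library and cDC1-like and cDC2-like cells of both libraries thus held cycling cells under either call, and in WT B cell-like cells and macrophages of both libraries most called cells rested on the 5 genes left out. Without thinning the shares were higher: 60.5% and 54.9% of T cell-like, 75% and 85.8% of cDC1-like, 39.2% and 32.6% of monocyte-like and 3.80% and 2.70% of neutrophil-like cells. Cycling cells of the cDC1-like, cDC2-like, NK cell-like and plasma cell-like types and WT T cell-like cells held more UMIs before thinning than the others of their type, with medians of 8486.5 against 4616.5 UMIs in WT T cell-like cells and 26313 against 17975 UMIs in KO cDC1-like cells. The medians were close or lower in cycling cells of WT resident macrophage-like (6844 against 7224.5 UMIs) and KO T cell-like cells (5598 against 5840 UMIs), among others. The part of depth or doublets in these calls was not tested.

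**Figure D2:**
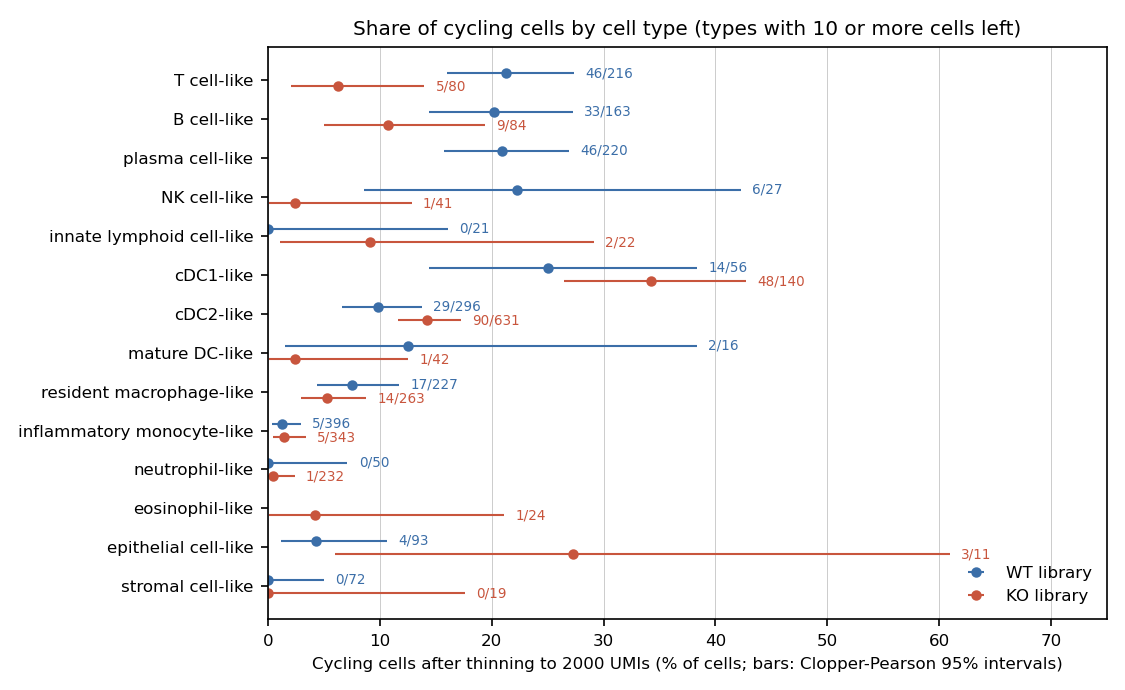
Percentage of cells called cycling after thinning to 2000 UMIs, by cell type and library, for types with at least 10 thinned cells, with Clopper-Pearson 95% intervals. T, B and plasma cell-like cells of the WT library lie between 20.2% and 21.3%, cDC1-like cells are highest in the KO library at 34.3%, and neutrophil-like cells are at or near 0.

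The origin of the cycling cells differed between the libraries. Of 211 cycling WT cells, 46 (21.8%) were T cell-like, 46 (21.8%) plasma cell-like and 33 (15.6%) B cell-like, while 29 (13.7%) were cDC2-like and 14 (6.64%) cDC1-like. Of 183 cycling KO cells, 90 (49.2%) were cDC2-like and 48 (26.2%) cDC1-like, while 9 (4.92%) were B cell-like and 5 (2.73%) T cell-like. These counts carry both the share that cycled and the number of cells of each type, and the latter depends on the sort. Within a type, the difference in the cycling share, KO minus WT, was -15.05 percentage points (-21.96 to -6.02) in T cell-like cells and -19.8 percentage points (-38.4 to -4.35) in NK cell-like cells, both intervals lying below 0. It was 22.97 percentage points (4.37 to 52.4) in epithelial cell-like cells, from 4 of 93 WT and 3 of 11 KO cells. In T cell-like cells it was -5.58 (-18.00 to 6.66) without thinning and -7.18 (-13.5 to 1.34) with a call of 2 UMIs from 2 G2/M genes, intervals that hold 0. The difference was -9.53 percentage points (-17.97 to 0.491) in B cell-like, 9.29 percentage points (-5.38 to 21.8) in cDC1-like and 4.47 percentage points (-0.190 to 8.59) in cDC2-like cells, 3 intervals that hold 0.

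By gene, and among types with at least 50 cells in the library, the KO library placed 36 of 42 peaks in 1 cell type. The highest CPM lay in cDC1-like cells for 21 of 24 G2/M genes, 13 of 16 S genes and both unphased genes there. In the WT library the peaks were spread, with 17 in cDC1-like, 11 in T cell-like, 9 in plasma cell-like and 3 in B cell-like cells. Pcna peaked in WT eosinophil-like cells (543 CPM) and Kif23 in WT neutrophil-like cells (89.6 CPM), both among the 7 genes that neutrophil-like cells carry. Cenpa, the centromeric histone variant, and the licensing factor Cdt1 peaked in B cell-like cells of both libraries, Cenpa at 149 and 139.6 CPM and Cdt1 at 136 and 96.5 CPM. Mki67 peaked in plasma cell-like cells of the WT library (187 CPM) and in cDC2-like cells of the KO library (271 CPM). Smaller types lay above some of these peaks: mature DC-like cells, 18 WT and 43 KO, held Mki67 at 245 and 503 CPM, and Kif23 stood at 124 CPM in 22 KO innate lymphoid cell-like cells. Plasma cell-like cells, with 5 KO cells, could hold no peak in the KO library. Mki67 stood at 300 CPM in those 5 cells. Neighbouring types in these orders often lay within counting error of each other, as for Top2a in WT cDC1-like (210.4 to 279 CPM) and T cell-like cells (188 to 239 CPM).

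**Figure D3:**
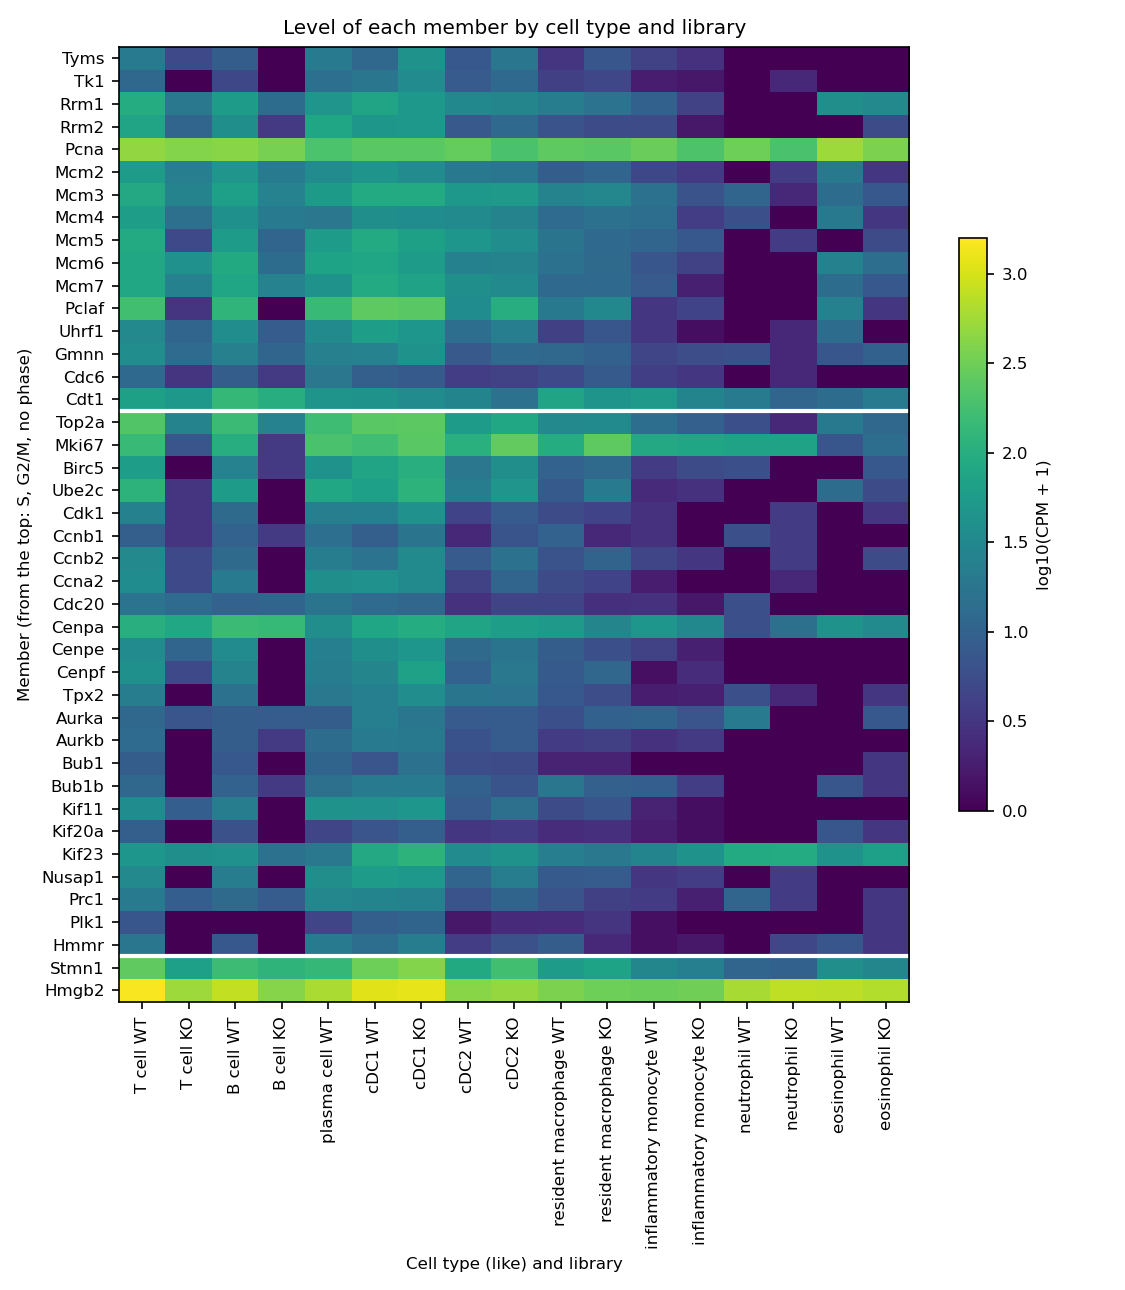
Level of each of the 42 genes, as log10 of CPM plus 1 on a colour scale, by cell type and library, with genes grouped by phase. G2/M genes are brighter (higher) in T, B and plasma cell-like cells of the WT library and in cDC1-like cells of both libraries, while Pcna, Cenpa, Kif23, Mki67 and Hmgb2 also appear in neutrophil-like and monocyte-like cells.

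The balance of S to G2/M was read from UMIs and from cells. In cycling cells, S genes held 51.6% (49.6 to 53.6) of phased UMIs in T cell-like, 56.4% (53.4 to 59.4) in B cell-like and 48.1% (46.8 to 49.4) in plasma cell-like cells of the WT library. By cell, more UMIs of S than of G2/M genes were counted in 27 T cell-like, 24 B cell-like and 21 plasma cell-like cells, against 14, 5 and 22 with more of G2/M. By these genes B cell-like cells leaned to S, and plasma cell-like cells were even, with UMIs of both phases in 44 of 46 cells. Leaving out Pcna and Mcm2 to Mcm7, 7 of the 16 S genes, lowered the S share over all cells of the type from 62.1% to 36.5% in WT B cell-like and from 50.2% to 31.95% in WT plasma cell-like cells. No G2/M gene was left out, so the share could only fall. The fall shows that the size of an S share depends on which genes are counted, and it does not test the lean. In cDC1-like cells S genes held 48.6% (46.2 to 51.1) in the WT and 41.5% (40.3 to 42.8) in the KO library, a difference of -7.14 percentage points (-9.87 to -4.40), and in cDC2-like cells 51.05% (48.3 to 53.8) and 42.7% (41.5 to 43.8), a difference of -8.38 percentage points (-11.3 to -5.46). By cell, 8 WT cDC1-like cells leaned to S and 5 to G2/M, against 20 and 25 KO cells, and in cDC2-like cells 16 and 11 against 39 and 47. Counted by cell, the difference in the S-leaning share held 0 in its interval, -15.5 percentage points (-40.5 to 12.8) in cDC1-like and -11.8 percentage points (-30.9 to 8.58) in cDC2-like cells. In resident macrophage-like cells, with 17 and 14 cycling cells, the share of UMIs was 36.6% and 47.6%, a difference of 11.04 percentage points (4.75 to 17.1), but by cell it was -8.82 percentage points (-39.2 to 23.7) and over all cells of the type -9.28 percentage points (-12.3 to -6.19). Over all cells of this type, Mki67 alone held 185 of 625 WT and 738 of 1302 KO UMIs of G2/M genes. The last difference thus leans on 1 gene, and no direction is drawn from it. The cDC2-like difference in UMIs turned to 1.26 percentage points without Pcna and Mcm2 to Mcm7, so no direction is drawn for it. In the KO library T cell-like and B cell-like cells gave 78% (64.04 to 88.5) and 67.6% (55.2 to 78.5) from 5 and 9 cells, and 21 of the UMIs of S genes in these T cell-like cells were of Pcna. Without Pcna and Mcm2 to Mcm7 the T cell-like difference turned from 26.4 to -5.74 percentage points, so no direction is drawn for it either.

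**Figure D4:**
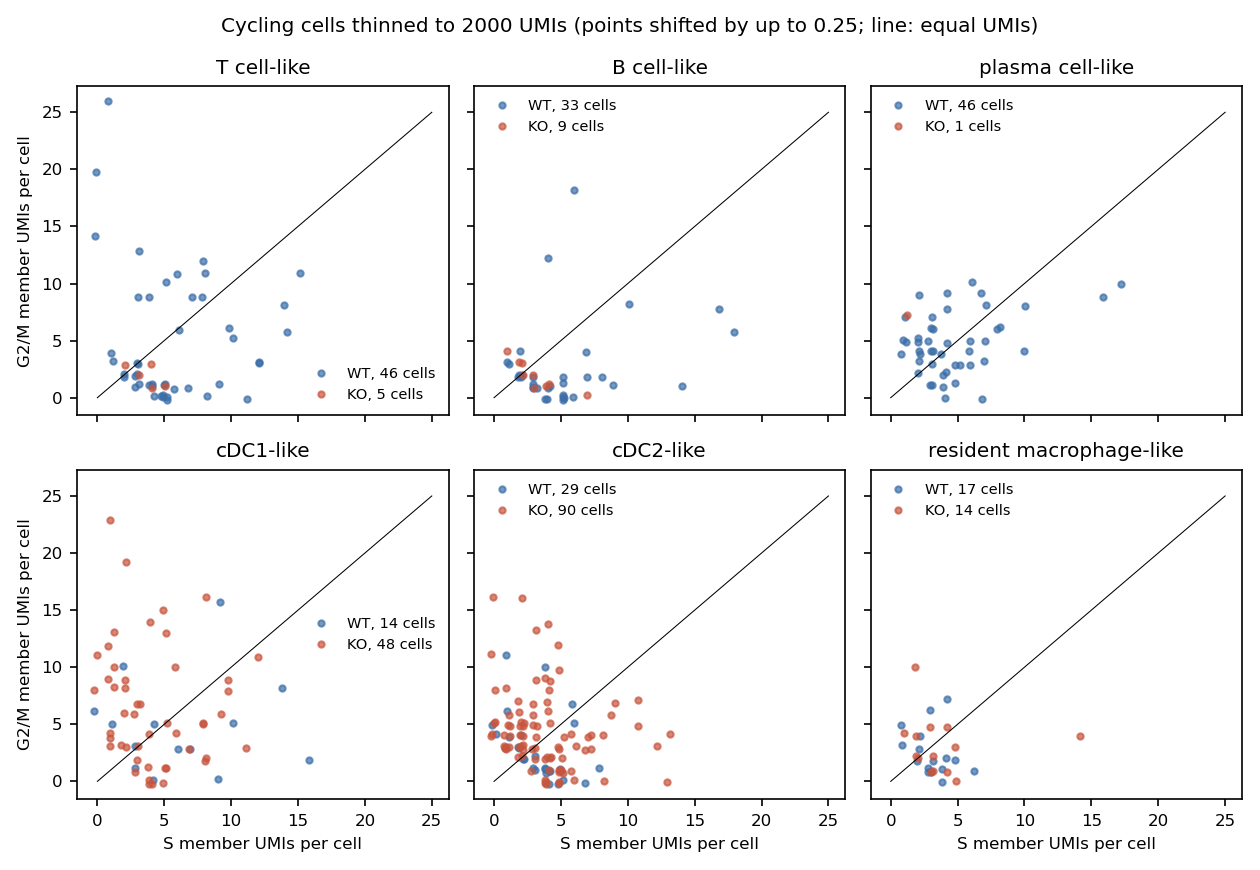
Thinned UMIs of S genes (x axis) and G2/M genes (y axis) in each cell called cycling, in 6 cell types, WT and KO library, with a line where both are equal. Over all types, 176 of 211 called cells in the WT and 158 of 183 in the KO library hold UMIs of both phases.

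In T cell-like cells nearly all genes of both phases stood lower in the KO library. Of 33 genes with at least 20 UMIs, 28 were at least 2-fold lower and 0 at least 2-fold higher, where 18.1% and 4.07% of all genes with that many UMIs were, and 9 genes had fewer UMIs. The median log2 KO to WT ratio was -2.12 over these genes and -0.26 over all genes. The ratio of the sum was -1.54 (-1.65 to -1.42), with -1.18 (-1.36 to -1.01) for S and -2.31 (-2.61 to -2.02) for G2/M genes. Among genes of DNA copying, Pclaf (ENSMUSG00000040204, chr9:65890237-65903266 on GRCm38) stood at 172 CPM in the WT library (224 UMIs) and 2.01 CPM in the KO library (1 UMI), a log2 ratio of -6.41 (-11.72 to -3.92). Of the helicase subunits, Mcm5 had 117 and 2 UMIs (log2 ratio -4.48, -7.54 to -2.59), and Mcm6 82.8 and 40.3 CPM (log2 ratio -1.04, -1.81 to -0.34). Rrm1 and Rrm2, the subunits of ribonucleotide reductase, had log2 ratios of -2.40 (-3.56 to -1.43) and -2.85 (-4.51 to -1.58). Of the G2/M genes, Top2a, the topoisomerase that untangles sister chromatids (ENSMUSG00000020914, chr11:98992943-99024189), stood at 212 CPM in the WT library (277 UMIs) and 26.2 CPM in the KO library (13 UMIs), a ratio of -3.02 (-3.95 to -2.22). Mki67, the proliferation marker Ki-67 (ENSMUSG00000031004, chr7:135689784-135716361), stood at 142 CPM in the WT library (185 UMIs) and 6.04 CPM in the KO library (3 UMIs), and Ube2c, the ubiquitin-conjugating enzyme of the anaphase-promoting complex (ENSMUSG00000001403, chr2:164769898-164778822), had 152 UMIs and 1 UMI, ratios of -4.55 (-6.84 to -2.98) and -5.85 (-11.17 to -3.35). Birc5, survivin, had 78 and 0 UMIs and was at least 9.89-fold lower taking 3 UMIs as the floor of the KO cells, with an exact upper limit of -2.97 for the log2 ratio, and the kinetochore motor Cenpe and the spindle motor Kif11 had ratios of -1.74 (-3.44 to -0.41) and -2.10 (-4.03 to -0.64). Pcna (484 and 401 CPM), Cenpa (99.6 and 78.5 CPM) and Kif23 (47.5 and 38.3 CPM), which are among the 7 genes of neutrophil-like cells, lay within 2-fold of each other in the 2 libraries. So did Cdt1, another of the 7 genes of neutrophil-like cells, and Cdc20 (15.3 and 12.1 CPM), which is not one of them. Mki67, Stmn1 and Hmgb2 are also among those 7 and were at least 2-fold lower in the KO library.

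The T cell-like cells of the libraries were not the same mix. The cluster led by Gzma, Gzmb and Cd8a held 63.6% of WT and 37.8% of KO T cell-like cells, and 35 of 139 WT and 1 of 31 KO cells in it were called cycling. Gzma, the protease granzyme A, had 6030 UMIs in 46 cycling and 8636 in 170 other WT T cell-like cells, but 0 and 2 UMIs in the 5 and 75 KO cells. Gzmb had 816 and 1264 UMIs in the WT and 1 and 23 in the KO cells, and Cd8a 0 and 21 in the KO cells, so the KO cells in this cluster carry little of its leading genes. Cd8a stood at 352 CPM in cycling and 259 CPM in other WT cells and Cd4 at 32.9 and 69.8 CPM, so the cycling WT T cell-like cells carried more of the cytotoxic genes. In the cluster led by Icos and Ctla4, 8 of 52 WT and 1 of 19 KO cells cycled, and the log2 ratio of the summed level was -1.06 (-1.33 to -0.81). In the cluster led by Lef1 and Tcf7, genes of naive T cells, 3 of 25 and 3 of 30 cycled and the ratio was -0.08 (-0.36 to 0.20), an interval that holds 0. The ratio in the Gzma cluster was -1.67 (-1.84 to -1.51), between cells that differ in those genes. How much of the T cell-like difference comes from the mix of cells was not tested.

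B cell-like cells showed the same direction with fewer UMIs. Of 23 genes with at least 20 UMIs, 17 were at least 2-fold lower and 0 at least 2-fold higher in the KO library, where 10.5% and 2.35% of all genes were, and 19 genes had fewer UMIs, among them Plk1 at 0 in both libraries. The median log2 ratio was -2.16 over the 23 genes and -0.12 over all genes. The ratio of the sum was -1.13 (-1.26 to -0.99), with -1.04 (-1.26 to -0.84) for S and -1.79 (-2.13 to -1.46) for G2/M genes. Pclaf had 94 UMIs in 190 WT cells and 0 in 85 KO cells and was at least 16.3-fold lower at a floor of 3 UMIs, with an exact upper limit of -3.70 for the log2 ratio. Ube2c had 43 and 0, at least 7.44-fold lower at that floor, with an upper limit of -2.54. Mki67 had 74 UMIs and 1 UMI, a ratio of -5.26 (-10.59 to -2.74). Top2a stood at 150.2 CPM in the WT library (114 UMIs) and 25.4 CPM in the KO library (10 UMIs), a ratio of -2.57 (-3.66 to -1.63), and Mcm6 at 86.98 and 12.7 CPM (log2 ratio -2.78, -4.45 to -1.48). Cenpa, at 149 and 139.6 CPM, was close to equal. The size of this difference depended on the choices made: the log2 ratio was -0.43 with cells classed by highest marker score, -0.53 as a mean over cells and -2.43 without the 7 genes of neutrophil-like cells. Of the germinal centre genes, Mef2b and S1pr2 both stood at 72.5 CPM in 33 cycling and 1.94 CPM in 130 other WT B cell-like cells, and Mybl1 at 72.5 and 5.83 CPM. The UMIs of these genes lay in at most 11 of the 33 cycling cells. Bcl6 stood at 43.5 and 46.7 CPM in the same cells. In the KO library Mef2b, S1pr2 and Mybl1 were at 0 UMIs in 9 cycling cells and at 1 UMI each in 75 other cells.

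Plasma cell-like cells were a WT population here, with 232 WT and 5 KO cells. Their S and G2/M genes were at similar sums of 888 and 882 CPM. The 46 cycling cells carried less of the secretory product than the 174 others: Jchain, the joining chain of IgA and IgM, stood at 23994 against 47321 CPM and Igha at 86122 against 169562 CPM. The plasma cell factor Xbp1 stood at 1738 against 2240.4 CPM and Mzb1 at 2040.2 against 1642 CPM, so not all markers of these cells were lower. Immunoglobulin genes take up a large part of the UMIs of a plasma cell, which sets the scale of every CPM in it.

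cDC1-like cells, which are marked by Xcr1 and Clec9a, had the largest share of cycling cells among types with at least 50 thinned cells in each library, although in the WT library its interval overlapped those of T, B and plasma cell-like cells. The KO to WT ratio of the sum was 0.14 (0.08 to 0.20), with -0.09 (-0.20 to 0.01) for S and 0.36 (0.26 to 0.47) for G2/M genes. All 42 genes had at least 20 UMIs, and 0 were at least 2-fold lower and 4 at least 2-fold higher in the KO library, where 4.78% and 5.35% of all genes were. The count of 4 is not far from that background, and the median log2 ratio was 0.06 over the 42 genes and -0.13 over all genes. The 4 were Tyms, the kinetochore protein Cenpf, cyclin B2 (Ccnb2) and the checkpoint kinase Bub1. Tyms stood at 10.8 CPM in the WT library (9 UMIs) and 43.7 CPM in the KO library (125 UMIs), a ratio of 2.01 (1.04 to 3.18), and Cenpf at 27.6 CPM in the WT library (23 UMIs) and 66.03 CPM in the KO library (189 UMIs), a ratio of 1.26 (0.63 to 1.95). Ccnb2 and Bub1 rested on 13 and 5 WT UMIs, with ratios of 1.04 (0.20 to 2.00) and 1.29 (-0.05 to 2.98). Several other genes were close between libraries, such as Top2a at 243 and 245 CPM, Pclaf at 251 and 239 CPM and Pcna at 242 and 237 CPM. Rrm1 lay below 0, at -0.57 (-1.02 to -0.12), as did Mcm5 at -0.46 (-0.86 to -0.06). Genes with intervals above 0 included Ube2c at 0.89 (0.46 to 1.34), Cdk1 at 0.84 (0.13 to 1.62) and Mki67 at 0.54 (0.27 to 0.82). Birc5 at 0.51 (0.11 to 0.94) and Kif23 at 0.48 (0.11 to 0.88) were also among them. Of the defining markers, Xcr1 stood at 157 CPM in cycling cDC1-like cells against 216 CPM in the other WT cells and at 82.4 against 143 CPM in KO cells. The log2 ratio of cycling to other cells was -0.47 (-0.99 to 0.04) in the WT library, an interval that holds 0. It was -0.80 (-1.15 to -0.45) in the KO library. Cadm1 was lower in cycling cells of both libraries, at 29.98 against 147 CPM and 60.97 against 111 CPM. Irf8 was higher in cycling cells, at 1202 against 989 CPM and 945 against 676 CPM. The RNA sensor gene Tlr3 stood at 81.6 against 30.4 CPM in KO cells and 83.3 against 73.3 CPM in WT cells.

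In cDC2-like cells, whose clusters were named from Cd209a, Clec10a or Mgl2 or, in the Plet1 cluster, from Plet1, Irf4, Dpp4 and H2-DMb2, several G2/M genes stood higher in the KO library and the S sum did not. Of 41 genes with at least 20 UMIs, 0 were at least 2-fold lower and 9 at least 2-fold higher, where 6.44% and 4.72% of all genes were. Of the 9, 7 were G2/M genes (Mki67, Birc5, Ube2c, Cdk1, Ccnb1, Ccna2 and Nusap1), and Tyms and Pclaf were S genes. The median log2 ratio was 0.50 over the 41 genes and -0.18 over all genes. The ratio of the G2/M sum was 0.76 (0.68 to 0.85) and that of the S sum -0.07 (-0.14 to 0.01). Mki67 stood at 107 CPM in the WT library (341 UMIs) and 271 CPM in the KO library (2603 UMIs), a ratio of 1.34 (1.17 to 1.50). Cyclin A2 (Ccna2) had 10 and 98 UMIs (log2 ratio 1.70, 0.76 to 2.80) and cyclin B1 (Ccnb1) 4 and 55 (log2 ratio 2.19, 0.75 to 4.11). Of the Ccnb1 UMIs, 4 WT and 35 KO lay in cells not called cycling, and 0 and 20 in called cells. Pclaf stood at 34.9 CPM in the WT library (111 UMIs) and 97.5 CPM in the KO library (936 UMIs), a ratio of 1.48 (1.20 to 1.78), and Top2a at 56.7 CPM in the WT library (180 UMIs) and 80.2 CPM in the KO library (770 UMIs), a ratio of 0.50 (0.27 to 0.74). Pcna, at 275 and 189 CPM (log2 ratio -0.54, -0.66 to -0.42), Cdt1 (log2 ratio -0.84, -1.24 to -0.43) and Mcm5 (log2 ratio -0.38, -0.66 to -0.10) lay on the other side. The sum of all 42 genes had a ratio of 0.34 (0.29 to 0.38). This ratio became -0.059 when the left-out cell cycle genes were allowed among the variable genes. The cDC1-like class then grew from 197 to 266 cells, and the part of this in the change was not tested.

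The cDC2-like class was made of 3 clusters that the libraries filled differently. The cluster led by Cd209a and Cd209d held 59.5% of WT cDC2-like cells and that led by Mgl2 and Ccl17 held 44.4% of KO cells. Called cycling were 18 of 173 WT and 35 of 210 KO cells in the Cd209a cluster, 3 of 20 and 39 of 282 in the Mgl2 cluster, and 8 of 103 and 16 of 139 in the cluster led by Plet1 and Itgae. The ratio of the sum was above 0 in each, at 0.62 (0.55 to 0.68), 0.16 (0.01 to 0.31) and 0.33 (0.24 to 0.41). Cycling cDC2-like cells held less Plet1 than the others, 68.9 against 229 CPM in the WT and 55.2 against 133 CPM in the KO library, and less Cd209a, 419 against 505 CPM and 515 against 663 CPM, with log2 ratios of -0.27 (-0.51 to -0.04) and -0.36 (-0.46 to -0.26).

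By role, groups of genes were compared in these types. Log2 KO to WT ratios of the helicase genes Mcm2 to Mcm7 ran from -4.48 (Mcm5) to -1.04 (Mcm6) in T cell-like, -2.78 (Mcm6) to -0.96 (Mcm4) in B cell-like, -0.46 (Mcm5) to -0.02 (Mcm3) in cDC1-like and -0.38 (Mcm5) to 0.06 (Mcm6) in cDC2-like cells. Mcm7 stood at 79.7 and 24.2 CPM in T cell-like and 38.4 and 31.6 CPM in cDC2-like cells, and Uhrf1 at 30.7 and 10.07 CPM in T cell-like and 13.2 and 22.7 CPM in cDC2-like cells. The helicase genes were thus lower in the KO library in T and B cell-like cells and near or slightly below equality in the cDC types. Those of the nucleotide genes Rrm1, Rrm2 and Tyms ran from -2.85 (Rrm2) to -2.36 (Tyms) in T cell-like, -0.57 (Rrm1) to 2.01 (Tyms) in cDC1-like and -0.10 (Rrm1) to 1.37 (Tyms) in cDC2-like cells. The cyclins and their kinase, Ccna2, Ccnb1, Ccnb2 and Cdk1, ran from -3.61 (Cdk1) to -2.07 (Ccnb1) in T cell-like, -0.35 (Ccna2) to 1.04 (Ccnb2) in cDC1-like and 1.00 (Ccnb2) to 2.19 (Ccnb1) in cDC2-like cells, on few UMIs. The checkpoint and mitotic kinases Bub1, Bub1b, Aurka, Aurkb and Plk1 had at most 16 UMIs in the WT and 3 in the KO library in T cell-like cells. In cDC2-like cells they ran from -0.60 (Bub1b) to 1.21 (Plk1), with intervals that hold 0 for each. The spindle and cytokinesis genes Kif11, Kif20a, Kif23, Nusap1, Prc1, Tpx2 and Hmmr ran from -0.14 (Nusap1) to 0.71 (Hmmr) in cDC1-like and -0.06 (Tpx2) to 1.10 (Nusap1) in cDC2-like cells. Stmn1, which destabilises microtubules, had ratios of -2.06 (-2.64 to -1.53) in T cell-like and 0.93 (0.75 to 1.12) in cDC2-like cells, and the chromatin protein gene Hmgb2 -1.43 (-1.62 to -1.25) and 0.22 (0.13 to 0.30).

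The genes differed in how often a cycling cell held a UMI of them after thinning. Top2a was found in 37.9% of WT and 38.8% of KO cycling cells and in no neutrophil-like cell of either library. Ube2c was found in 22.3% of WT and 22.4% of KO cycling cells, and Birc5 in 15.6% of WT and 20.2% of KO cycling cells. Mki67 was found in 39.8% of WT and 60.7% of KO cycling cells, but also in 8.23% of KO neutrophil-like cells. The cyclin gene Ccnb1 was seldom seen, in 5.21% of WT and 2.19% of KO cycling cells. These shares take part in the call itself and are a description.

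**Figure D5:**
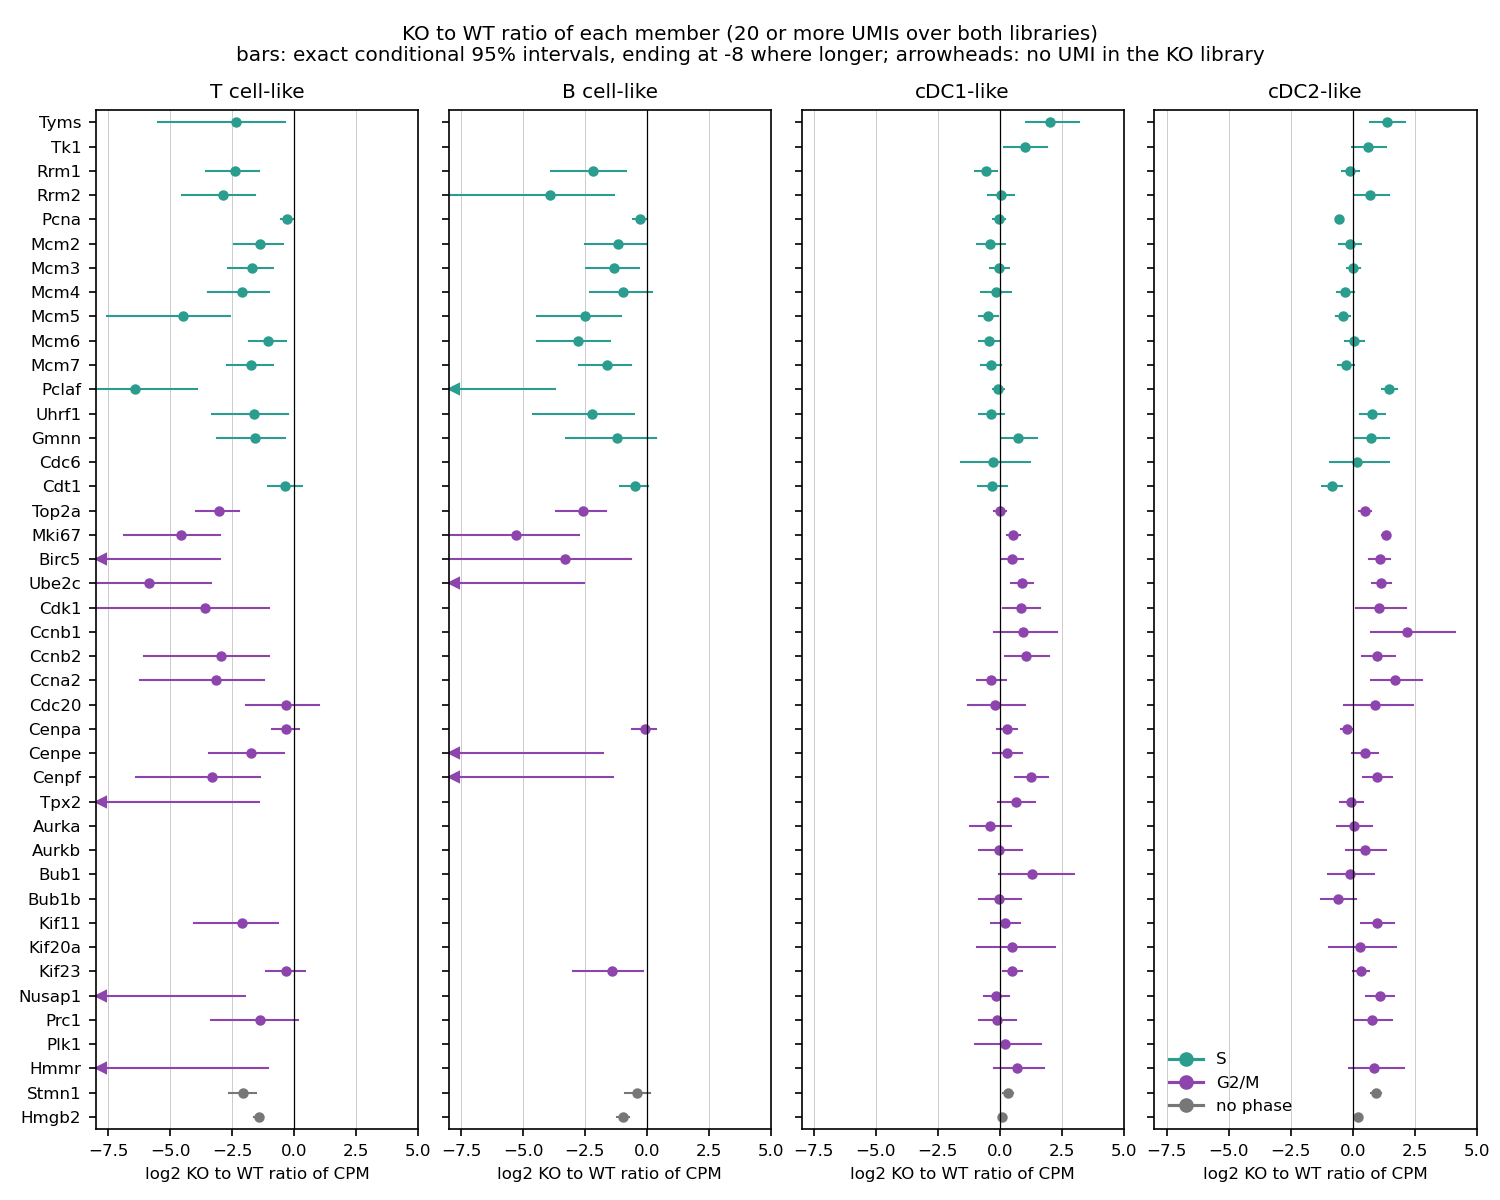
Log2 ratio of CPM, KO over WT, for genes with at least 20 UMIs in T cell-like, B cell-like, cDC1-like and cDC2-like cells, with exact conditional 95% intervals that are drawn to -8 at most. Arrowheads mark genes at 0 UMIs in the KO library. These genes lie below 0 in T cell-like cells, 33 of 33, and on both sides of 0 in the cDC types.

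Mki67 stood apart from Top2a in several myeloid types. In mature DC-like cells, with 18 WT and 43 KO cells, Mki67 stood at 245 and 503 CPM and Top2a at 31.4 and 4.58 CPM. In resident macrophage-like cells not called cycling Mki67 stood at 76.5 CPM (210 WT cells) and 231 CPM (249 KO cells), a log2 ratio of 1.59 (1.32 to 1.87), while Top2a stood at 21.9 and 10.3 CPM, a ratio of -1.08 (-1.84 to -0.34). In cDC2-like cells not called cycling the Mki67 levels were 75.04 and 199 CPM, a ratio of 1.41 (1.20 to 1.63), with Top2a at 18.5 and 16.95 CPM. Monocyte-like cells not called cycling held Mki67 at 84.1 and 73.4 CPM and neutrophil-like cells at 83.4 and 67.1 CPM. T cell-like and B cell-like WT cells not called cycling were lower, at 17.2 and 9.72 CPM. Mki67 is part of the cycling call, so its level in uncalled cells is a description. Among resident macrophage-like cells the cluster led by Mmp13 and C1qa had 16 of 203 WT and 3 of 101 KO cells called cycling and a ratio of the sum of -0.31 (-0.43 to -0.20), and the cluster led by Retnla and Lpl 1 of 22 and 11 of 161 and a ratio of 1.17 (0.91 to 1.44). The former cluster held 64.4% of WT and the latter 54.4% of KO resident macrophage-like cells, and the part of this mix in the Mki67 levels was not tested. The class as a whole, at 0.05 (-0.02 to 0.13), joined clusters on both sides of 0.

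Genes outside the 42 were compared between 119 cycling and 808 other cDC2-like cells of both libraries together, the type with most cycling cells. On 6 lists chosen by function, at least 2-fold higher in cycling cells were 26 of 26 mitosis genes with at least 20 UMIs, 19 of 20 replication genes, 8 of 10 regulators, 10 of 14 chromatin and tubulin genes, 5 of 10 cyclins, kinases and their partners, and 2 of 11 inhibitors and brakes, where 7.20% of all genes were. None of the genes on these lists was at least 2-fold lower. In the other types the mitosis list gave 18 of 18 in T cell-like, 8 of 8 in B cell-like, 24 of 24 in plasma cell-like, 26 of 26 in cDC1-like and 12 of 12 in resident macrophage-like cells, and the inhibitor list 1 of 10, 0 of 8, 3 of 10, 3 of 11 and 3 of 10. Of all genes, 8.08%, 7.72%, 20.9%, 9.61% and 9.20% were at least 2-fold higher in these types. At least 2-fold lower were 2 of 10 inhibitors and 1 of 10 cyclins, kinases and partners in plasma cell-like cells and 1 of 4 regulators in resident macrophage-like cells. The condensin genes Smc4 and Smc2 had log2 ratios of 2.60 (2.41 to 2.80) and 4.01 (3.69 to 4.35), Racgap1, which acts in cytokinesis, 3.15 (2.79 to 3.51), and Ckap2l 2.45 (2.05 to 2.85). Of the replication list, Dut, which clears dUTP, had 2.27 (2.03 to 2.50), the histone methyltransferase gene Ezh2 2.09 (1.87 to 2.31), Atad2 2.07 (1.80 to 2.35) and the histone chaperone gene Nasp 0.58 (0.40 to 0.76). Of the regulators, E2f1 had 1.77 (1.35 to 2.18), Cdc25a 1.17 (0.60 to 1.72), Wee1 0.48 (-0.17 to 1.09) and E2f2 0.43 (-0.03 to 0.86), the last 2 with intervals that hold 0. Tuba1b, Hmgb1 and H2afz had 2.23 (2.14 to 2.31), 1.46 (1.39 to 1.53) and 0.87 (0.83 to 0.91), and the lamin gene Lmnb1 -0.19 (-0.30 to -0.07). The D cyclins, which act before S phase, were near 0 or below it in Ccnd1 (log2 ratio 0.09, -0.06 to 0.23) and Ccnd2 (log2 ratio -0.38, -0.50 to -0.27), with Ccnd3 at 0.53 (0.29 to 0.77) and Cks2 at 0.64 (0.44 to 0.84). Of the brakes, Btg1 (log2 ratio -0.39, -0.45 to -0.33), the p21 gene Cdkn1a (log2 ratio -0.28, -0.37 to -0.20) and the p27 gene Cdkn1b (log2 ratio -0.34, -0.60 to -0.09) lay below 0 and Btg2 (log2 ratio 0.17, 0.04 to 0.30) above it.

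The 10 genes outside the 42 with the largest ratio in these cells were histone genes and partners of mitosis, apart from a pair of neutrophil genes. Replication-dependent histone genes made up 5 of them: Hist1h1b (104 against 2.38 CPM), Hist1h2ap (183 against 11.7 CPM), Hist1h2ae (155 against 8.96 CPM), Hist1h4d (154 against 9.15 CPM) and Hist1h2ab (70.00 against 2.10 CPM). The H2A genes Hist1h2ap, Hist1h2ae and Hist1h2ab are near-identical copies of each other, so reads may be shared among them. Most histone messages lack the poly(A) tail that this assay captures. Smc2 stood at 154 against 9.54 CPM, the tubulin gene Tubb5 at 1063 against 125 CPM and Spc24, a kinetochore gene, at 86.3 against 5.05 CPM. The neutrophil alarmin genes S100a9 and S100a8 were also among the 10. In cycling cells, 463 of 496 S100a9 UMIs came from 2 cells, and 239 of 244 S100a8 UMIs also came from 2 cells. Whether these were the same 2 cells was not checked. The part of doublets or free RNA in them was not tested.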

How the data were processed

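The deposited values were raw UMI counts per gene and barcode, which the authors made from 10x Genomics 3' V3 libraries with Cell Ranger 3.0.2, per the file headers; the submitters' processing notes name mm10 and Seurat 4. Cells with 200 to 6000 genes and at most 15% mitochondrial UMIs were kept. Both libraries were normalised to 10000 UMIs per cell and clustered in 1 run on 2000 variable genes. These excluded the summed cell cycle genes, the genes of the lists chosen by function and histone genes, but not other cell cycle genes. Clustering used 30 components, 15 neighbours and Leiden resolution 1 (leidenalg 0.10.2 and scanpy 1.11.5). A cluster was named from at least 3 raised markers. The study's own clusters were not used here.

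Levels are UMIs of a gene summed over the cells of a type, per 1000000 UMIs of those cells (CPM), with exact Poisson intervals. Log2 ratios carry exact conditional binomial intervals, shares Clopper-Pearson and differences of shares Newcombe intervals (scipy 1.17.1), all at 95%. No test between genotypes was made, because each genotype has 1 library. A gene counted as called at 2-fold with at least 20 UMIs over both libraries. The 42 genes, the wider lists and the markers were chosen with earlier results of these data known. The text names the 42 genes, up to 4 genes of each wider list with most UMIs in kept cells, and the 10 other genes with the largest ratio in cycling over other cDC2-like cells (10 CPM added, at least 50 UMIs). The ratio step was run on simulated Poisson counts, the model that these intervals assume, without clumping of UMIs within cells. It thus checks the calculation only and cannot show how well the intervals cover in the real cells. In these simulated counts the intervals held the true ratio for 96.7% of genes in T cell-like and 95.9% in cDC2-like cells. Of the unchanged genes, 3.90% and 2.10% passed 2-fold. Doublets were left in, since Scrublet marked 0 WT cells and 0.159% of KO cells. Gene positions come from GENCODE annotation of GRCm38. Alternatives changed the filter, doublets, clustering, naming, thinning, the cycling call and the genes summed. The level of 1 further marker gene is not reported here.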

Additional observations from a re-analysis of the deposited data

Results flagged for a closer look

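The KO to WT ratio went in opposite directions in 2 lymphoid and 2 dendritic types, being below 0 in T cell-like and B cell-like cells and above 0 in cDC1-like and cDC2-like cells. For the sum of the 42 genes, the log2 ratio in T cell-like cells lay -1.68 from that in cDC1-like and -1.88 from that in cDC2-like cells, and the ratio in B cell-like cells lay -1.26 and -1.47 from them. For the G2/M genes the distances were -2.67 and -3.07 for T cell-like cells and -2.15 and -2.55 for B cell-like cells. Each genotype has 1 library, so the difference was not tested. The cDC2-like sum is the weakest side of this pattern, since its ratio turned below 0 when the left-out cell cycle genes entered the clustering. Smaller types of the same lineages were mixed: NK cell-like cells were also below 0, at -1.11 (-1.33 to -0.89), but the ratio of the sum was 0.43 (0.05 to 0.81) in innate lymphoid cell-like and -0.26 (-0.49 to -0.01) in mature DC-like cells, and the T cell-like cluster led by Lef1 was at -0.08 (-0.36 to 0.20).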

How the results depend on the processing

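Over 12 comparisons and their alternatives, 132 of 156 values stayed within the counting interval of the reported one, 21 moved outside it, and in 3 a value whose interval excluded 0 changed sign; 9 values in all had the other sign, among them differences of -1.49 points (cDC1-like cycling cells, thinned to 500 UMIs) and -0.667 points (B cell-like S share without Pcna and Mcm2 to Mcm7) inside their intervals. The causes were not tested beyond what each alternative changes. With the left-out cell cycle genes allowed in clustering, the log2 KO to WT ratio of the sum was 0.21 in cDC1-like cells. The ratio changed sign to -0.059 in cDC2-like cells, and the cDC2-like cycling difference was -0.933 percentage points. Cells classed by marker score gave ratios of 0.30 (cDC1-like) and -0.43 (B cell-like) and an S share difference of -6.64 points in B cell-like cells. Libraries clustered alone gave -0.91 in B cell-like cells. As a mean over cells the ratios were -1.08 (T cell-like), -0.53 (B cell-like), 0.26 (cDC1-like) and 0.25 (cDC2-like). Without Stmn1 and Hmgb2 the B cell-like ratio was -1.28, and without the 7 genes of neutrophil-like cells, an alternative chosen after seeing the data, the ratios were -2.58 (T), -2.43 (B) and 0.47 (cDC2). Without thinning the cycling differences were -5.58 points (T cell-like) and 3.16 points (B cell-like), and with 2 UMIs of 2 genes -24.9 (B cell-like) and -2.22 (cDC2-like). The S share difference was -5.35 points in cDC2-like cells with Hmgb2 as G2/M. Without Pcna and Mcm2 to Mcm7 it changed sign to -5.74 in T cell-like and 1.26 in cDC2-like cells and was -4.07 in cDC1-like cells, and without Pcna, Cdt1, Cenpa, Kif23 and Mki67, also chosen after seeing the data, it was 36.3 in T cell-like cells, where 5 KO cells carry it. Of 351 values for single levels and shares, 228 stayed within their interval and 123 moved. No paired analysis was possible because each genotype has 1 library, and for the same reason no replicate could be left out.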
